A study of Mus musculus with 20 samples.

Results

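The Rhox cluster is a family of reproductive homeobox genes on the mouse X chromosome. Its members were taken as every gene of the deposited tables with the symbol Rhox followed by a number and an optional copy letter and digit. That rule found 34 genes, all annotated as protein-coding, among the 53722 genes listed in both tables. Another 8 annotated Rhox pseudogenes lie in the same region and were not counted as members.

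Germ cells that lost Chd4 through Cre, and their controls, gave 20 RNA sequencing libraries. There were 10 groups with 2 libraries each. Non-growing oocytes (NGO) were sampled at postnatal days 1, 5 and 10 (P1, P5 and P10), growing oocytes (GO) at P10, and undifferentiated spermatogonia at P3. At P1, P5 and P3 the knockouts (DcKO) were Chd4 f/- with 1 copy of Ddx4-Cre and the controls (Dctrl) were Chd4 f/+ with 1 copy of Ddx4-Cre. Those controls therefore carried Cre and kept an intact Chd4 allele beside the floxed one. At P10 the knockouts (GcKO) were Chd4 f/f with 1 copy of Gdf9-iCre, and their Gctrl counterparts were Chd4 f/f with no Cre. Ddx4-Cre is active in germ cells of both sexes, and Gdf9-iCre is active in oocytes. All mice had a mixed background of C57BL/6, 129S1/Sv and FVB/NJ. The labels do not say that the 2 libraries of a group came from separate animals, so every p-value measures only the spread between these libraries.

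Chd4 is an ATPase that moves nucleosomes, and it forms the core of the NuRD complex, which also removes acetyl groups from histones. Rhox genes encode homeodomain transcription factors made mainly in testis, ovary and placenta. They lie in 3 neighbouring subclusters called alpha, beta and gamma, and several alpha genes exist as tandem copies. In most somatic tissues the cluster is kept silent, with DNA methylation at its promoters as a known part of that silencing. The comparisons ask how transcript levels across the cluster differ without Chd4 in each kind of germ cell, and how they differ between ages and growth states in controls.

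In GENCODE M21 on GRCm38 the members span chromosome X from 37213804 to 38129967, a distance of 916.2 kb. The alpha subcluster holds 24 members: Rhox1, 8 copies of Rhox2, 7 of Rhox3 and 8 of Rhox4. The beta subcluster holds Rhox5, Rhox6, Rhox7a, Rhox7b, Rhox8 and Rhox9, 6 genes in all. The gamma subcluster holds the 4 genes Rhox10, Rhox11, Rhox12 and Rhox13. Because the copies are alike, reads can fit more than 1 of them. The share of 150-base stretches of a gene's transcripts that occur in no other annotated gene was 100% for 8 members, Rhox1, Rhox2h, Rhox5, Rhox8, Rhox10, Rhox11, Rhox12 and Rhox13. It was at least 90% for 13 members and under 50% for 11. Among the Rhox2 copies it was 98.2% for Rhox2g, 97.9% for Rhox2d, 78% for Rhox2f, 61.4% for Rhox2c, 53.8% for Rhox2a, 49.5% for Rhox2b and 17.9% for Rhox2e. Values of Rhox2a, Rhox2b, Rhox2c, Rhox2e and most Rhox3 and Rhox4 copies are therefore uncertain as values of single genes. Rhox2c and Rhox3c also overlap on the same strand, as do Rhox3g and Dppa3-ps, and Rhox3h and Gm24147. Dppa3-ps was far above Rhox3g in level, at 1190 and 1230 TPM in GO controls and 2409 and 2680 TPM in GO knockouts, so the Rhox3g values are uncertain too.

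Promoter windows from RefSeq (GRCm38.p6; 250 bases before to 50 bases after the transcript start) matched 27 of the 34 members. In 20 of these the RefSeq start lay within 300 bases of the GENCODE start. It lay farther off for Rhox5 (50234 bases), Rhox3c (11283), Rhox3e (4956), Rhox3g (473), Rhox13 (379), Rhox3f (360) and Rhox3a2 (355), and the counts below keep those windows. The windows of Rhox1, Rhox2a and Rhox2d, which differed between GO controls and knockouts, and of Rhox10, which did not detectably, are printed here, with each CG dinucleotide, the site of DNA methylation, in capitals. The Rhox1 window lies on the minus strand at chrX:37222209-37222508, and those of Rhox2a (chrX:37244742-37245041), Rhox2d (chrX:37493160-37493459) and Rhox10 (chrX:38066225-38066524) lie on the plus strand.
Rhox1: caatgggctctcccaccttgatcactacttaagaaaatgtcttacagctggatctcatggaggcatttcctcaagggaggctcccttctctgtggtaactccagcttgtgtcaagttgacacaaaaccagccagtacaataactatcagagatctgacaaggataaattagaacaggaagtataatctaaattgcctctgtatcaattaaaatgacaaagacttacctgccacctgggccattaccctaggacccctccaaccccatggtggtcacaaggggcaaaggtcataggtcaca
Rhox2a: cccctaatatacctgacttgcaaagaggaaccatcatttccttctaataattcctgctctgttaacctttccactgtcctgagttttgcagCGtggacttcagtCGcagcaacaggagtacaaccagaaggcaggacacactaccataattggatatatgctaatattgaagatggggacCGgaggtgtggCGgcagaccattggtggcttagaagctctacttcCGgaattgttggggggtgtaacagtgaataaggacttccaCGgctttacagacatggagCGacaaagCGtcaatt
Rhox2d: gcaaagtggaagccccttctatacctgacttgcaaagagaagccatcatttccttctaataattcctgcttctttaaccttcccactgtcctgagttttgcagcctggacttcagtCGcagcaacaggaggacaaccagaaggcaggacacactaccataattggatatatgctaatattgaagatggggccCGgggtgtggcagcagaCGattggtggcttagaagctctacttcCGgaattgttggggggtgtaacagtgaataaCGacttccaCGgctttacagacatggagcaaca
Rhox10: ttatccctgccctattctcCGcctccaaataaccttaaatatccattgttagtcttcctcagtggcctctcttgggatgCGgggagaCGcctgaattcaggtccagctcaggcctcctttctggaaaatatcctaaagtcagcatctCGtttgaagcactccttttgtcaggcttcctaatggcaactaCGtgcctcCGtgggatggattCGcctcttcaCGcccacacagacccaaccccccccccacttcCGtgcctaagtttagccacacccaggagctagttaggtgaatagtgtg

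The Rhox1 window held 0 CG, that of Rhox2a held 8, that of Rhox2d held 6 and that of Rhox10 held 9. Over the 27 member windows the median was 7, the same as the median of 7 over all 32851 RefSeq windows of this length, whose middle 50% ran from 3 to 20. Members did not exceed 12, a count reached by Rhox4a. The sequence CCAAT, searched on both strands, occurred in 15 of the 27 windows, which were all the matched Rhox2 and Rhox4 copies and Rhox5. It occurred in 37.41% of all windows. The windows of Rhox2a and Rhox2c were 99.7% identical, as were those of Rhox2a and Rhox2e, whereas Rhox2a and Rhox2d shared 88.2% of their bases. Over all pairs of Rhox2 windows identity ran from 74.9% to 99.7%, with a median of 87.9%.

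The deposited values are TPM, which divide reads by gene length and scale each library to the same total. Depth recovered from the values ran from 15330000 to 30070000 reads per library, and a count of 3 reads, used here as the floor for a value of 0, corresponded to 0.315 to 0.675 TPM for Rhox2d and Rhox6 in the P10 libraries. Chd4 itself was lower in both knockout libraries than in both controls at P1 (24.7 and 31.2 TPM in controls, 4.32 and 1.9 TPM in knockouts), P5, P10 NGO, P10 GO and P3. At P10 its control level was already only 1.63 and 1.85 TPM in NGO, against 1.34 and 0.247 TPM in knockouts, and 1.56 and 2.96 TPM in GO, against 0.631 and 1.54 TPM. Germ cell markers were present in every library, with all 4 of Ddx4, Dazl, Mael and Tex15 above 1 TPM and a summed level of 672 TPM or more. The 8 oocyte markers summed to 3363 to 9570 TPM in oocyte libraries and 467 to 678 TPM in spermatogonia. The 9 markers of undifferentiated spermatogonia summed to 2110 to 3376 TPM in spermatogonia and 10.5 to 396.6 TPM in oocytes. Endothelial markers summed to 0.569 to 102 TPM in oocytes and 22.8 to 49.96 TPM in spermatogonia, stromal and steroidogenic markers to 0.253 to 17.6 TPM and 13.5 to 48.1 TPM, and blood and immune markers to at most 20.1 TPM and 27.9 to 98.4 TPM.

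Summed over all 34 members, the highest group means were those of the P5 NGO knockouts (1407 and 1335 TPM) and the P3 spermatogonia knockouts (1247 and 1418 TPM), followed by the P1 NGO knockouts (1188 and 1216 TPM). The P10 GO knockouts (1090 and 685 TPM), the P1 NGO controls (918 and 835 TPM), the P10 NGO knockouts (913 and 682 TPM) and the P5 NGO controls (843 and 534 TPM) came next. Neighbours among these 4 groups overlapped, as did the P5 and P3 knockouts at the top. The P3 controls (396 and 400 TPM), the P10 NGO controls (353 and 278 TPM) and the P10 GO controls (119 and 161 TPM) were lowest, and did not overlap with each other. Within each age and growth state both knockout libraries had a higher sum than both controls. The P3 libraries differ from the oocytes in sex and cell type, so the places of the P3 groups in this order carry that limit. The P10 groups differ from the others in Cre line and Chd4 genotype, which limits their places too.

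**Figure D1:**
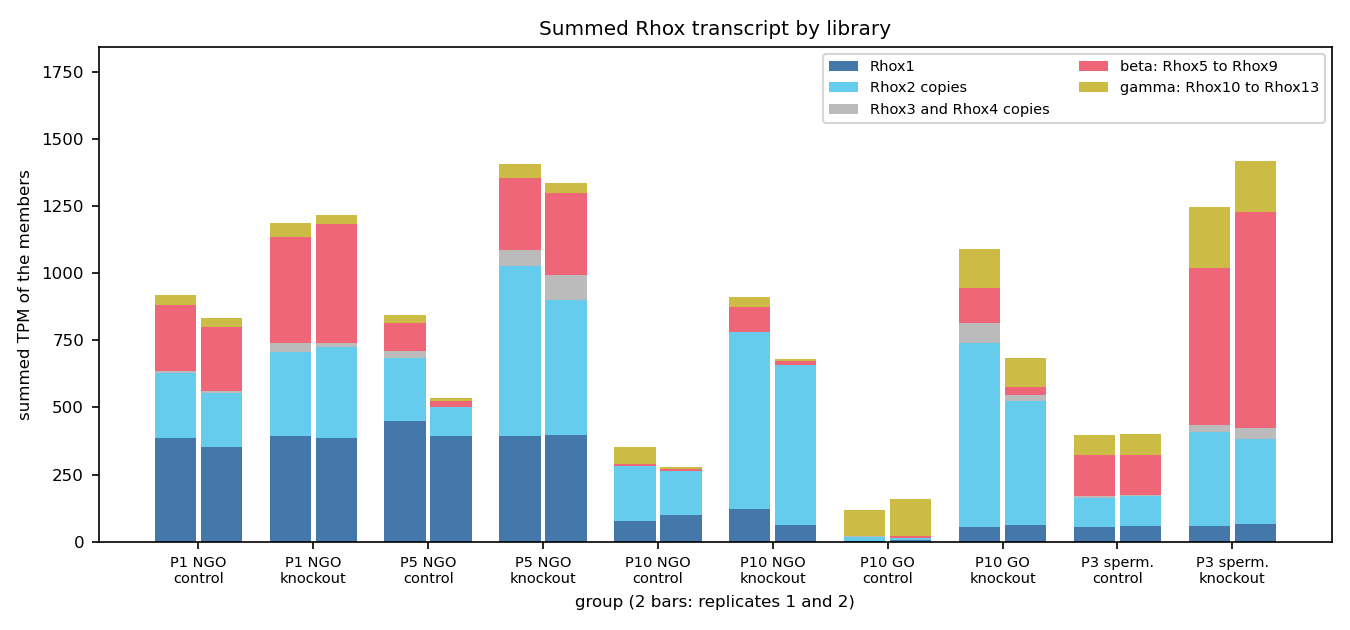
Summed TPM of the 34 Rhox genes in each of 20 libraries (2 bars per group, replicates 1 and 2), stacked by Rhox1, Rhox2 copies, Rhox3 and Rhox4 copies, beta genes and gamma genes. Both knockout bars exceed both control bars in all 5 pairs of groups, from 119 and 161 TPM to 1090 and 685 TPM in P10 GO.

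The make-up of the sum differed between the groups. Rhox1 gave the largest part in P1 controls (369 ± 22.9 TPM, SD, n = 2; 42.1% of the sum) and in P5 controls (61.5%), and Rhox2a had the highest mean in P10 NGO controls (33.8%), where Rhox2a led in the first library and Rhox1 in the second. In P10 GO controls Rhox10 alone gave 84.1% of the sum. In P3 controls Rhox5 led with 29.8%, and in P3 knockouts it reached 46.5%. The map of all members by library shows these changes along the cluster.

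**Figure D2:**
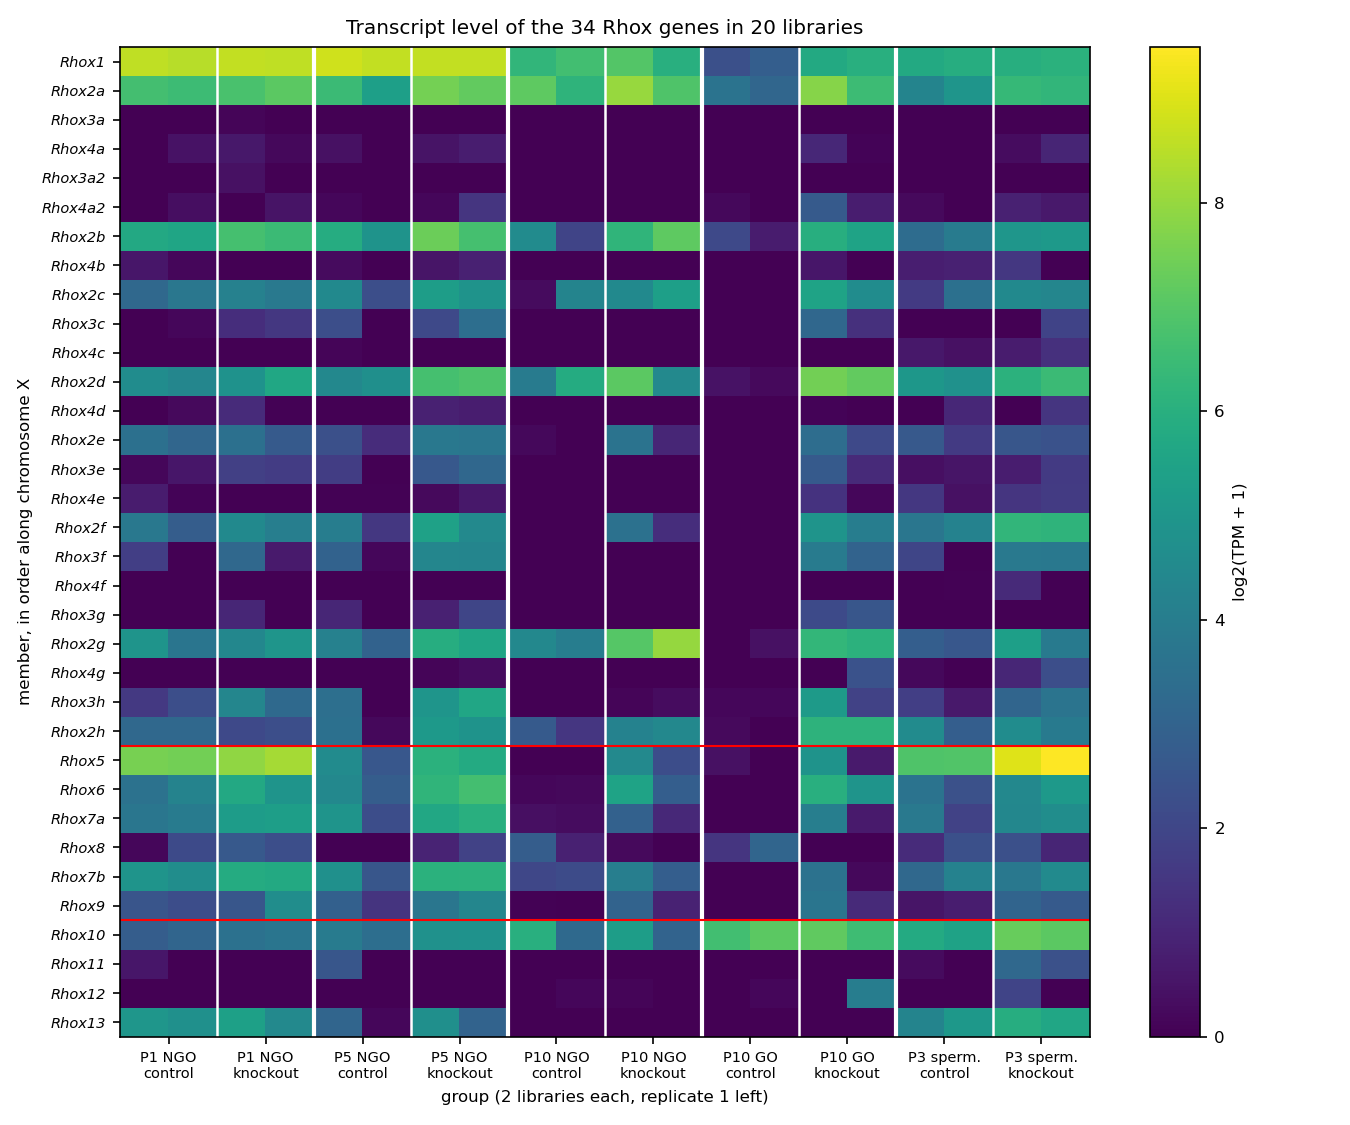
Level of each of the 34 Rhox genes (rows, in order along chromosome X, red lines between the alpha, beta and gamma subclusters) in 20 libraries (columns, 2 per group), as log2(TPM + 1). In the P10 GO control columns most rows are dark and Rhox10 is bright (97.1 and 138 TPM), while in the P10 GO knockout columns the Rhox2 rows are bright again.

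Of the alpha genes, Rhox1 was the most abundant in young oocytes. It stood at 385 and 353 TPM in P1 controls and at 395 and 386 TPM in P1 knockouts. It stood at 451 and 395 TPM in P5 controls and at 395 and 398 TPM in P5 knockouts. The 4 groups of P1 and P5 lay close together, with no gap between control and knockout at P5. In P10 NGO it was at 75.4 and 98.5 TPM in controls and 122 and 62.0 TPM in knockouts, which overlapped. In P10 GO it was at 4.03 and 6.07 TPM in controls and 53.7 and 63.0 TPM in knockouts, so the GO knockouts stood near the NGO level and the GO controls far below. In spermatogonia it was at 54.1 and 59.1 TPM in controls and 60.3 and 65.1 TPM in knockouts.

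Rhox2a had the highest mean of the Rhox2 copies in every group but the P10 GO knockouts and the P3 controls, where Rhox2d was higher. The Rhox2a values were 101 and 89.2 TPM in P1 controls, 108 and 137 TPM in P1 knockouts, 87.7 and 39.8 TPM in P5 controls and 181 and 147 TPM in P5 knockouts. At P10 they were 142 and 71.7 TPM in NGO controls, 262 and 117 TPM in NGO knockouts, 11.2 and 7.78 TPM in GO controls and 220 and 89.7 TPM in GO knockouts. Spermatogonia had 18.4 and 29.8 TPM in controls and 82.1 and 74.4 TPM in knockouts. The GO controls were the lowest 2 of the 20 libraries, and only in P10 NGO did control and knockout overlap.

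Rhox2d and Rhox2g, the copies with nearly unique sequence, followed a like course in GO. Rhox2d was at 23.4 and 19.8 TPM in P1 controls, 27.7 and 49.0 TPM in P1 knockouts, 20.3 and 25.4 TPM in P5 controls and 103 and 115 TPM in P5 knockouts. At P10 it was at 14.6 and 57.0 TPM in NGO controls, 135 and 20.97 TPM in NGO knockouts, 0.384 and 0.196 TPM in GO controls (2 and 1 reads) and 178 and 147 TPM in GO knockouts. Spermatogonia had 31.5 and 26.7 TPM in controls and 68.0 and 87.2 TPM in knockouts. Rhox2d was thus under the floor of 3 reads in GO controls. In GO knockouts it had the highest mean of all members, with Rhox2a higher in the first library and Rhox2d in the second. Rhox2g was at 28.8 and 11.8 TPM in P1 controls, 19.9 and 29.6 TPM in P1 knockouts, 17.1 and 6.82 TPM in P5 controls and 58.9 and 47.0 TPM in P5 knockouts. At P10 it was at 20.7 and 15.1 TPM in NGO controls, 126 and 252 TPM in NGO knockouts, 0 and 0.336 TPM in GO controls and 77.4 and 68.5 TPM in GO knockouts. Its spermatogonia values were 6.08 and 4.94 TPM in controls and 40.5 and 13.6 TPM in knockouts. For Rhox2g the control and knockout libraries overlapped at P1 and at no other stage.

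The remaining Rhox2 copies varied in level. Rhox2b reached 163 and 103 TPM in P5 knockouts against 58.3 and 28.2 TPM in controls, 72.6 and 141 TPM in P10 NGO knockouts against 23.2 and 2.86 TPM, and 60.9 and 44.0 TPM in P10 GO knockouts against 3.30 and 0.671 TPM. Rhox2c was at 37.7 and 28.3 TPM in P5 knockouts against 21.8 and 3.86 TPM in controls. At P10 Rhox2c was at 21.96 and 40.42 TPM in NGO knockouts against 0.226 and 18.3 TPM, and at 44.3 and 23.6 TPM in GO knockouts against 0 in both controls. All of these knockout libraries lay above their controls. Rhox2f was at 42.5 and 21.4 TPM in P5 knockouts against 15.4 and 1.94 TPM, at 29.2 and 15.4 TPM in GO knockouts against 0, and at 75.4 and 71.6 TPM in spermatogonia knockouts against 12.3 and 17.4 TPM. Rhox2h was at 33.6 and 28.2 TPM in P5 knockouts against 10.3 and 0.141 TPM, and at 69.6 and 68.6 TPM in GO knockouts against 0.167 and 0 TPM. At P1 Rhox2h ran the other way, with 8.26 and 8.28 TPM in controls and 3.27 and 3.89 TPM in knockouts. Rhox2e stayed at or below 13.0 TPM everywhere, with 9.43 and 3.27 TPM in GO knockouts and 0 in GO controls. Rhox2a, Rhox2c and Rhox2e, whose promoter windows are nearly identical, had mean values of 94.88, 10.53 and 9.001 TPM in P1 controls, with the limit that their reads can be shared.

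Rhox3 and Rhox4 copies were mostly near 0. Rhox3a and Rhox3a2 were under 1 TPM in every library. Rhox3h was the highest copy, with 29.7 and 48.0 TPM in P5 knockouts against 9.98 and 0 TPM in controls, and 34.8 and 2.64 TPM in GO knockouts against 0.125 and 0.127 TPM. Rhox3f was at 19.27 and 19.09 TPM in P5 knockouts against 7.02 and 0.110 TPM, at 14.3 and 7.19 TPM in GO knockouts against 0, and at 13.2 and 13.1 TPM in spermatogonia knockouts against 2.98 and 0 TPM. Both genes were low in most controls. Rhox3c (3.22 and 9.83 TPM) and Rhox3e (5.17 and 8.02 TPM) reached a mean of 5 TPM in P5 knockouts, against 3.89 and 0 TPM and 2.31 and 0 TPM in controls. Rhox3g was at 3.36 and 4.82 TPM in GO knockouts and at 0 in GO controls. Rhox4, whose first described copy was found in differentiating embryonic stem cells, reached 5.47 TPM at most, for Rhox4a2 in 1 GO knockout library.

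Of the beta genes, Rhox5 is the founding member, known as a target of androgen in Sertoli cells. Its values were 188 and 178 TPM in P1 controls, 239 and 294 TPM in P1 knockouts, 22.9 and 5.00 TPM in P5 controls and 65.0 and 55.5 TPM in P5 knockouts. At P10 they were 0 in both NGO controls, 20.95 and 3.78 TPM in NGO knockouts, 0.349 and 0 TPM in GO controls and 28.3 and 0.614 TPM in GO knockouts. In spermatogonia Rhox5 was the highest member, at 117 and 121 TPM in controls and 518 and 720 TPM in knockouts. Rhox5 was thus higher in both knockout libraries than in both controls at every stage, while its level in oocytes was lower at each later age. The P10 groups also differ from those of P1 and P5 in Cre line and Chd4 genotype, which cannot be told apart from age.

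Rhox6 and Rhox9 are known from placenta and germ cells. Rhox6 was at 11.03 and 17.98 TPM in P1 controls, 52.7 and 28.8 TPM in P1 knockouts, 20.6 and 6.04 TPM in P5 controls and 73.0 and 98.7 TPM in P5 knockouts. At P10 it was at 0.128 and 0.142 TPM in NGO controls (1 read each), 44.8 and 6.13 TPM in NGO knockouts, 0 in GO controls and 62.0 and 29.5 TPM in GO knockouts. Its spermatogonia values were 11.3 and 4.13 TPM in controls and 20.8 and 33.7 TPM in knockouts. In all 5 pairs of groups the Rhox6 knockout libraries lay above the controls. Rhox9 was at 12.4 and 19.7 TPM in P5 knockouts against 6.49 and 1.69 TPM, and at 11.99 and 1.177 TPM in GO knockouts against 0. Rhox7a was at 50.3 and 62.1 TPM in P5 knockouts against 29.1 and 3.70 TPM, and at 15.6 and 0.627 TPM in GO knockouts against 0. Rhox7b was at 65.3 and 68.1 TPM in P5 knockouts against 26.5 and 4.78 TPM, and at 10.9 and 0.141 TPM in GO knockouts against 0. For Rhox5, Rhox7a, Rhox7b and Rhox9 the second GO knockout library was far below the first. Rhox8, a gene of Sertoli and granulosa cells, went the other way at P10, with 5.92 and 0.831 TPM in NGO controls against 0.176 and 0 TPM in knockouts, and 1.75 and 7.56 TPM in GO controls against 0 in both knockouts.

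Of the gamma genes, Rhox10 is known to be needed for mice to form a normal pool of spermatogonial stem cells. It was at 5.91 and 7.55 TPM in P1 controls, 10.54 and 12.05 TPM in P1 knockouts, 14.5 and 9.89 TPM in P5 controls and 27.0 and 27.9 TPM in P5 knockouts. At P10 it was at 62.5 and 8.43 TPM in NGO controls, 37.7 and 7.14 TPM in NGO knockouts, 97.1 and 138 TPM in GO controls and 145 and 92.4 TPM in GO knockouts. In spermatogonia it was at 54.5 and 43.5 TPM in controls and 156 and 135 TPM in knockouts. Rhox10 was the most abundant member in GO controls, with Rhox2a next, and there control and knockout overlapped. Rhox13 is known from germ cells of both sexes. It was at 31.0 and 25.9 TPM in P1 controls, 41.6 and 21.4 TPM in P1 knockouts, 7.45 and 0.127 TPM in P5 controls, 25.5 and 7.20 TPM in P5 knockouts, and 0 in all 8 libraries of P10. Spermatogonia had 18.3 and 32.5 TPM in controls and 59.9 and 48.7 TPM in knockouts. Rhox11 (8.18 and 4.17 TPM) exceeded 5 TPM on average in spermatogonia knockouts only, with 0.206 and 0 TPM in their controls. Rhox12 reached 15.2 TPM in 1 GO knockout library and 0 in the other.

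**Figure D3:**
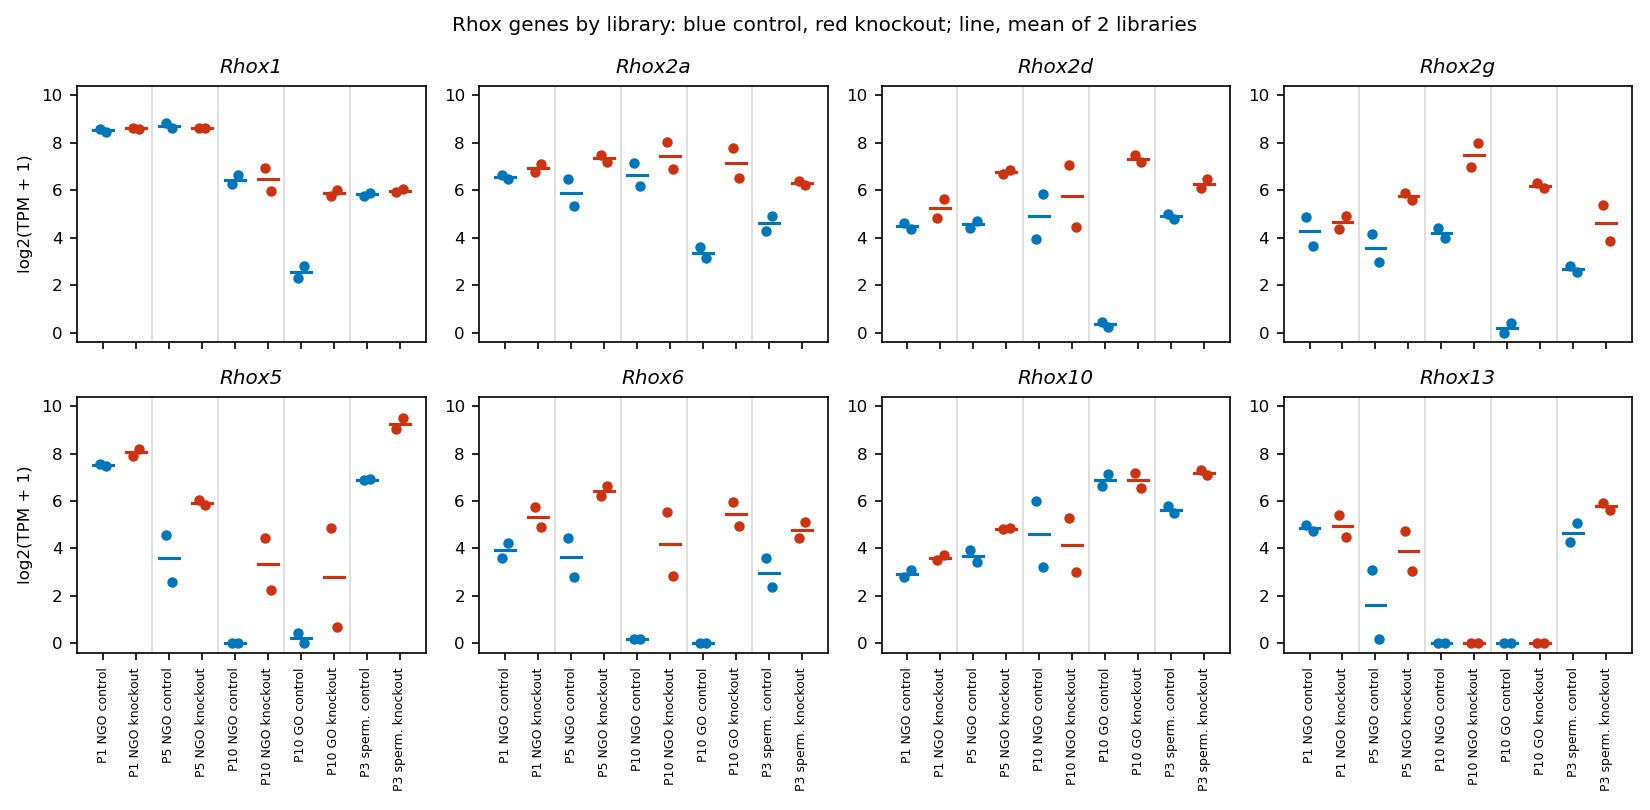
Levels of 8 Rhox genes in each library as log2(TPM + 1), with controls in blue, knockouts in red and a line at the mean of the 2 libraries of a group. Rhox1, Rhox2a, Rhox2d and Rhox2g are lower in P10 GO controls (Rhox1 at 4.03 and 6.07 TPM) than in P10 GO knockouts, Rhox10 is high in both, and Rhox13 is at 0 in all P10 libraries.

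Differences between groups were tested with limma on log2(TPM + 1) for every gene with at least 1 TPM in at least 2 libraries, p-values adjusted by Benjamini-Hochberg over the whole table, and a threshold of 0.05. Of the 34 members, 23 passed that filter in the oocyte table and 23 in the spermatogonia table, 19 of them in both, and 7 passed in neither. A member that passed only because it was high in knockouts had to differ, so the counts below describe the tested members and are read beside the share of all genes. Fewer cells of a kind that carry a transcript and less of it per cell cannot be told apart in these pooled libraries.

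In P10 GO the knockouts had higher Rhox1, Rhox6, Rhox3f, Rhox3g and all 8 Rhox2 copies than the controls, and no member passed the test as lower. Rhox1 rose 11.6-fold (log2 difference 3.31 ± 0.29, SE, adjusted p = 1.96e-05), Rhox2a rose 16.3-fold (3.77 ± 0.52, adjusted p = 0.000476) and Rhox2b rose 26.4-fold (4.30 ± 0.73, adjusted p = 0.002). Where both controls were at 0, the rise is a lower bound set against the floor of 3 reads per control library. Rhox6 was at least 116-fold higher (adjusted p = 0.000583), Rhox2c at least 97.9-fold (adjusted p = 0.00604), Rhox2f at least 44.8-fold (adjusted p = 0.00381), Rhox3f at least 27.2-fold (adjusted p = 0.0283), Rhox2e at least 13.5-fold (adjusted p = 0.0306) and Rhox3g at least 10.2-fold (adjusted p = 0.00546). Rhox2d (6.98 ± 0.73), Rhox2h (6.02 ± 0.79) and Rhox2g (6.00 ± 0.51) had controls of at most 2 reads, so the size of these log2 differences depends on the pseudocount. Their adjusted p-values were 6.68e-05, 0.000359 and 1.61e-05.

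In all, 12 of the 23 tested members passed in P10 GO, all higher, where 9.12% of all 20470 genes passed as higher and 4.69% as lower. Among the 801 other X-linked genes tested, 13.4% passed as higher. In 20 of the 23 both knockout libraries lay above both controls, a pattern found in 30.3% of all genes. The median log2 difference of the tested members was 2.74, or 3.77 with the 11 members whose controls were at 0 set at their bound, against 0.06 over all genes. Rhox10 did not differ detectably (95% interval of the log2 difference -1.74 to 1.74), Rhox13 was at 0 in both groups, and Rhox8, at 0 in both knockouts, had a log2 difference of -2.28 ± 0.76 that did not pass (adjusted p = 0.0711). Rhox8 did pass as lower with log2(TPM + 0.1) (adjusted p = 0.0204), with quantile normalization (0.0147) and with voom (0.0148). In these settings 16, 15 and 16 members passed as higher. Over all genes, 2998 of 20470, 3346 of 20470 and 2899 of 19833 passed there in either direction. Rhox5 and Rhox7a also missed, with adjusted p-values of 0.163. Rhox2e and Rhox3f lost their call when single GO libraries were left out, with log2 differences down to 2.10 for Rhox2e and 3.03 for Rhox3f. Markers of supporting cells moved with the knockout here: their summed level was 3.04 and 0.697 TPM in controls and 19.6 and 35.0 TPM in knockouts, with 10 and 11 of the 16 markers at 0 in controls and 5 and 6 in knockouts. Stromal and steroidogenic markers were at 0.253 and 0.516 TPM in controls and 2.995 and 8.09 TPM in knockouts. Endothelial markers stood at 102.3 TPM in the first knockout library, against 2.78 TPM in the second and 6.64 and 2.96 TPM in controls. Of the 10 supporting cell markers tested, Clu passed as higher. Of the 8 oocyte markers, Figla, Nobox and Sohlh1, transcription factors of young oocytes, also passed as higher in GO knockouts, with Sohlh1 at 22.5 and 45.2 TPM against 1.12 and 0.935 TPM (adjusted p = 4.43e-06). Their part in the result was not tested.

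In P10 NGO the knockouts had higher Rhox2g, Rhox2b and Rhox6, and the other tested members did not pass. Rhox2g rose 10.6-fold (log2 difference 3.26 ± 0.51, adjusted p = 0.00984) and Rhox2b rose 8.19-fold (3.40 ± 0.73, adjusted p = 0.0382). For Rhox6, with 1 read in each control, the log2 difference was 3.99 ± 0.78 (adjusted p = 0.0251). These 3 were all the members that passed of 23, against 1.02% of all genes higher and 0.899% lower, and in 12 both knockout libraries lay above both controls, against 17.4% of all genes. The median log2 difference was 0.87 against 0 over all genes. Rhox5 was at least 22.8-fold higher and Rhox2f at least 11.9-fold higher against the floor without passing (adjusted p = 0.156 and 0.184). Both did pass with log2(TPM + 0.1) (adjusted p = 0.0315 and 0.0202) and with voom (0.0379 and 0.0338), whereas Rhox2b did not pass with voom. In these settings 6 and 5 members passed as higher, where 626 of 20470 and 754 of 19833 genes passed in either direction. Rhox1 showed no detectable difference (log2 difference 0.01, 95% interval -0.62 to 0.65). Rhox2b lost its call without control library 2 or knockout library 2 (adjusted p = 0.144 and 0.14), as did Rhox6 without either control (0.0557 and 0.0818). In a fit of these 4 libraries alone, no gene of the table passed. Supporting cell markers overlapped between the groups, at 5.13 and 6.34 TPM in controls and 23.4 and 3.85 TPM in knockouts. The oocyte markers summed to 4166 and 4826 TPM in controls and 3764 and 3363 TPM in knockouts, and none of them passed. Of the germ cell markers Ddx4 passed as lower. The part of these markers in the result was not tested.

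At P5 no member passed, although most members were higher in both knockout libraries than in both controls. The largest of the 23 fitted differences were those of Rhox3h (log2 difference 3.55 ± 1.09, adjusted p = 0.165), Rhox2h (3.15 ± 0.79, adjusted p = 0.0882) and Rhox6 (2.80 ± 0.78, a 6.45-fold ratio of means, adjusted p = 0.118). The smallest adjusted p was that of Rhox2g, 0.0692, with a smaller difference (2.17 ± 0.51, a 4.44-fold ratio). Over all genes, limma called 1.05% higher and 0.313% lower. At an unadjusted p under 0.05 the test took in 15 of the 23 members as higher, against 7.57% of all genes. In 18 of the 23, both knockout libraries lay above both controls, against 23.9% of all genes, and the median log2 difference was 2.04 against 0. Rhox1 again showed no detectable difference, with a log2 difference of -0.09 and a 95% interval of -0.72 to 0.55. The second P5 control library had lower values than the first for most members. Without the first control library the log2 difference was 4.80 for Rhox2h and 2.78 for Rhox2g. With voom in limma on recovered reads 0 members passed, where 401 of 19833 genes passed in either direction. Supporting cell markers moved with the knockout at P5 too, from 15.3 and 10.0 TPM in controls to 50.1 and 76.9 TPM in knockouts. Of their 16 markers 4 and 6 were at 0 in the controls and 4 and 2 in the knockouts. Of the 10 tested Inha passed as higher, at 13.1 and 43.8 TPM against 0.075 and 2.18 TPM (adjusted p = 0.0174). The oocyte markers summed to 9202 and 9570 TPM in controls and 7353 and 6067 TPM in knockouts, and Ooep passed as lower. The part of supporting cells and of these markers in the result was not tested.

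At P1 no member passed either, and the differences were smaller. Over all genes, limma called 0.86% higher and 0.84% lower at this age. At an unadjusted p under 0.05 it took in 1 of the 23 members as higher, against 4.96% of all genes. The voom fit called 0 members, where it called 400 of 19833 genes in either direction. In 16 members both knockout libraries lay above both controls, against 18.4% of all genes, and the median log2 difference was 0.75 against 0. Rhox6 differed by 1.40 ± 0.78 (95% interval -0.29 to 3.10) and Rhox5 by 0.53 ± 1.10 (-1.86 to 2.92). Supporting cell markers were not higher in knockouts at P1, at 20.2 and 83.3 TPM against 81.6 and 142 TPM in controls. Endothelial markers were higher in both, at 25.7 and 15.7 TPM against 8.65 and 10.65 TPM. Of the 8 oocyte markers, Gdf9, Zp3 and Ooep, products of the maturing oocyte, passed as lower at P1, with Gdf9 at 3.96 and 1.38 TPM against 27.6 and 37.4 TPM (adjusted p = 0.00215). Their part in the Rhox values was not tested.

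In P3 spermatogonia, fitted alone with 2 residual degrees of freedom, no gene of the table passed in either direction (0% higher and 0% lower), so the test had no members to call. At an unadjusted p under 0.05 limma took in 14 of the 23 tested members as higher, against 11.1% of all genes. The voom fit called 0 members, where it called only 1 of 18203 genes. In 17 of the 23, both knockout libraries lay above both controls, against 27.9% of all genes, and the median log2 difference was 1.56 against 0.09. Rhox5 had the smallest p, with a 5.21-fold higher mean in knockouts (log2 difference 2.35 ± 0.19, adjusted p = 0.0671). Rhox2f was 4.94-fold higher (2.25 ± 0.27, adjusted p = 0.0906) and Rhox10 was 2.97-fold higher (1.56 ± 0.20, adjusted p = 0.102). With a filter at 5 TPM, which tests fewer genes, these 3 passed, at adjusted p-values of 0.0155, 0.0329 and 0.0392. Over all genes 56 of 12737 passed with that filter. Rhox5 also passed when either control library was left out (0.04185 and 0.03848) and missed when either knockout library was left out (0.05312 and 0.07184). Rhox1 showed no detectable difference (0.15, 95% interval -0.33 to 0.62). The 16 supporting cell markers, which include Sertoli genes, summed to 198 and 172 TPM in controls and 425 and 544 TPM in knockouts, with Foxl2 at 0 in all 4 libraries. Blood and immune markers (27.9 and 37.7 TPM in controls, 69.6 and 98.4 TPM in knockouts), stromal and steroidogenic markers (13.5 and 13.9 TPM, 43.6 and 48.1 TPM) and endothelial markers (26.1 and 22.8 TPM, 43.9 and 49.96 TPM) were also higher in both knockout libraries. Rhox5 is known from Sertoli cells, and the part of any of these cells in the differences was not tested.

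**Figure D4:**
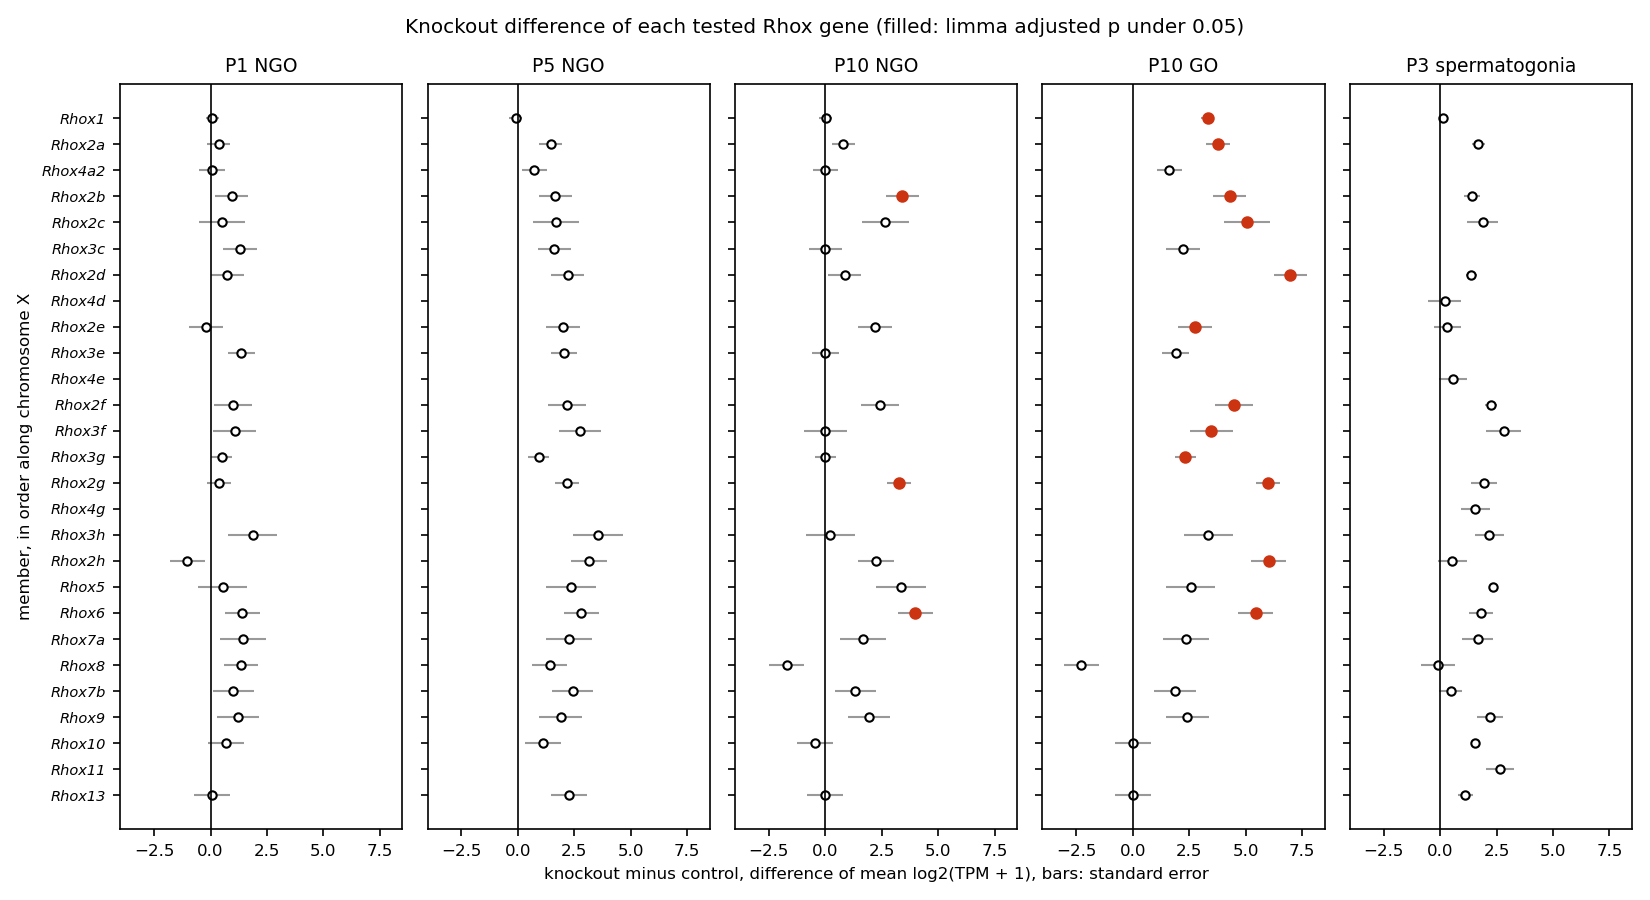
Knockout minus control difference of mean log2(TPM + 1) for each Rhox gene tested in either table, with standard errors from limma; filled red points have an adjusted p under 0.05. In P10 GO 12 genes are filled and Rhox10 and Rhox13 lie at 0, in P10 NGO 3 are filled, and in the other panels most open points lie to the right of 0.

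Among P10 controls, Rhox1, Rhox2a, Rhox2d and Rhox2g were lower in growing than in non-growing oocytes. In GO against NGO controls the log2 difference was -3.87 ± 0.29 for Rhox1 (adjusted p = 3.38e-06), -3.30 ± 0.52 for Rhox2a (adjusted p = 0.000577), -4.55 ± 0.73 for Rhox2d (adjusted p = 0.000684) and -4.01 ± 0.51 for Rhox2g (adjusted p = 0.000128). The size for the last pair depends on the pseudocount, since GO controls held at most 2 reads of either. These 4 of 23 members were lower, where 13.2% of all genes were lower and 11% were higher. No member passed as higher in the fit on log2(TPM + 1). Rhox10 was higher without passing (2.25 ± 0.80, unadjusted p = 0.0155, adjusted p = 0.0605), with 62.5 and 8.43 TPM in NGO controls and 97.1 and 138 TPM in GO controls. Rhox10 did pass as higher with a filter at 5 TPM (adjusted p = 0.0431), quantile normalization (0.0302), the replicate block (0.0474) and voom (0.0447). Over all genes, 4804 of 13437 passed in either direction with that filter, 5604 of 20470 with quantile normalization and 4847 of 20470 with the block. The voom fit called 7 members lower and 1 higher, where it called 4995 of 19833 genes in either direction.

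The same 4 genes had a larger knockout difference in GO than in NGO. The difference of the log2 differences was 3.30 ± 0.41 for Rhox1 (adjusted p = 0.000789), 6.12 ± 1.04 for Rhox2d (adjusted p = 0.00478), 2.98 ± 0.73 for Rhox2a (adjusted p = 0.0303) and 2.73 ± 0.73 for Rhox2g (adjusted p = 0.0417). Of the 23 members 4 passed as higher, where 4.84% of all genes were higher and 2.62% lower. This comparison uses the same GO and NGO controls as the growth comparison, so the overlap of the genes is not independent. Rhox1 passed under all 15 alternative settings and Rhox2d under 14, whereas Rhox2a passed under 7 and Rhox2g under 4. Without single libraries the difference fell as far as 2.34 for Rhox2a and 2.23 for Rhox2g, and both lost their call in several of these fits.

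Between P1 and P5 controls, Rhox13 was lower at P5 (log2 difference -3.25 ± 0.80, adjusted p = 0.0394), with 31.0 and 25.9 TPM at P1 and 7.45 and 0.127 TPM at P5. Rhox5 was lower without passing (-3.94 ± 1.10, adjusted p = 0.0684). It did pass as lower with quantile normalization (adjusted p = 0.0273), the replicate block (0.04), only the groups compared (0.0151) and voom (0.0474). Over all genes, 1121 of 20470, 818 of 20470, 2358 of 15301 and 1011 of 19833 passed there in either direction. In the fit on log2(TPM + 1), Rhox13 was the only one of 23 members to pass, where 1.98% of all genes were lower and 2.72% higher. Rhox13 did not pass with log2(TPM + 0.1), no filter, only the groups compared or voom. Its call was lost without either P1 control (log2 difference -3.12 and -3.38) or without the second P5 control (-1.80). The knockout difference did not change detectably between P1 and P5 for any member. In that comparison limma called 0 members, against 0.23% of all genes higher and 0.083% lower. The voom fit also called 0 members, where it called 166 of 19833 genes in either direction. At an unadjusted p under 0.05 limma took in 2 members as higher, against 4.79% of all genes. The larger of these was Rhox2h (4.17 ± 1.12, adjusted p = 0.179). Without the first P5 control the value for Rhox2h was 5.82. This comparison of knockout differences shares the P1 and P5 controls with the comparison of ages.

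Some Rhox pseudogenes also differed. Rhox3b-ps, Rhox3d-ps, Rhox7-ps1 and Rhox7-ps2 share 150-base stretches with members, so their reads can be shared. Rhox2-ps and Rhox11-ps2 share no such stretch with a member. Of 8, 6 were tested in oocytes, and 3 passed as higher at P5 (Rhox2-ps, Rhox3d-ps and Rhox11-ps2) and 4 in P10 GO (Rhox2-ps, Rhox3b-ps, Rhox3d-ps and Rhox7-ps1). Rhox2-ps was at 21.1 and 30.4 TPM in P5 knockouts against 3.78 and 2.41 TPM in controls (adjusted p = 0.00813), and at 12 and 9.10 TPM in GO knockouts against 0. As shares of all genes, 1.05% passed as higher at P5 and 9.12% in P10 GO. Of the 19 other annotated genes within 500 kb of the cluster that were tested, 1 passed as higher at P5 and 3 as higher and 2 as lower in P10 GO, with 0 at P1 and in P10 NGO. The shares over all genes in P10 GO were 9.12% higher and 4.69% lower. Ndufa1, a subunit of mitochondrial complex I beside the cluster, was higher at P5 (4759 and 3950 TPM in knockouts against 2719 and 3011 TPM, adjusted p = 0.038) and in GO (2592 and 2591 TPM against 1523 and 1419 TPM, adjusted p = 0.000886). Ube2a, a ubiquitin-conjugating enzyme, was lower in GO (77.4 and 106.3 TPM against 173 and 166 TPM, adjusted p = 0.0091). The median log2 difference of these neighbours in GO was 0.05, against 0.06 over all genes.

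Of 13 tested genes of DNA methylation and silencing, 1 passed as higher and 1 as lower in P10 GO. Over all genes 9.12% passed there as higher and 4.69% as lower. Dppa3, which protects maternal chromatin from demethylation in the zygote, was at 94340 and 105500 TPM in GO knockouts against 45240 and 46800 TPM in controls (adjusted p = 4.43e-06). Dnmt3l, a cofactor of DNA methylation in growing oocytes, was at 0.134 and 0 TPM in GO knockouts against 3.97 and 11.9 TPM in controls (adjusted p = 0.00032). None of the 13 passed at P1, P5 or P10 NGO. Of 16 germline genes known to be silenced by DNA methylation in the soma, to be read beside the shares of all genes given above for each comparison (as higher, 0.86% at P1, 1.05% at P5, 1.02% in P10 NGO and 9.12% in P10 GO), 2 passed as higher at P1, 5 at P5 (among them Sycp1 and Hormad1, of the meiotic chromosome axis), 2 in P10 NGO with 1 lower, and 4 in P10 GO with 1 lower. Sycp3, another axis gene, was at 1921 and 1762 TPM in GO knockouts against 229 and 154 TPM in controls (adjusted p = 3.55e-07). Of 12 spermatogonial stem cell genes tested in oocytes, Lin28a passed as higher at P1, where 0.86% of all genes did.

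Across the 16 oocyte libraries the genes whose log2(TPM + 1) was most like that of Rhox1, the member with the highest mean, were Marcksl1 (Pearson r = 0.988), Sohlh1 (0.986), Ndufs6 (0.98), Atp6v1f (0.979) and Rpsa (0.979). None of these lies on the X chromosome. These points share ages, genotypes and libraries, so the values are descriptions. Among the 23 tested members, Rhox8 (-0.18) and Rhox10 (-0.17) had a median r to the other 22 below 0, and for the remaining members the median ran from 0.416 (Rhox4a2) to 0.741 (Rhox6). Part of the likeness of copies can come from shared reads, which were not separated.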

How the data were processed

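RNA sequencing of 20 libraries was deposited as TPM in 1 table of 16 oocyte libraries and 1 of 4 spermatogonia libraries. Per the labels' protocols, low-input libraries were read as pairs of 150 bases, and per the submitters' processing notes Trimmomatic 0.39, STAR 2.5.4b, SAMtools 1.9 and featureCounts 2.0.1 were used with GRCm38. The annotation, the gene lengths behind the authors' TPM, the strand setting and the treatment of reads that fit several copies are not given in the sources used here. Whole reads were recovered from TPM and the GENCODE M21 union exon length of each gene. The tolerance for calling a recovered count whole was 0.05; below 20 reads, 98.67% to 99.22% met it per library, as did all 124 such values of members. The recovered depth, 15330000 to 30070000 reads, sets counting error only.

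limma 3.58.1 in R 4.3.3 (lmFit, contrasts.fit, eBayes with a trend, two-sided) was fitted on log2(TPM + 1), which understates the change of low genes. Genes with 1 TPM in 2 libraries were tested, 20470 in the fit of the 16 oocyte libraries (8 residual degrees of freedom) and 18671 in that of spermatogonia. The comparisons were knockout against control in 5 cell groups, ages and growth states in controls, and 2 differences of knockout effects. The fit was tested on simulated data of well-covered genes with a fixed spread. That setting does not cover members near the floor, so it says nothing about their calls. Members and gene lists were chosen with earlier results of these data known. Per-library values are given for members with a mean of 5 TPM in a group or past the test, except that lower groups of minor copies are left to the map of all members. Motifs and identities were computed in Python 3.11.15 with Biopython 1.88. The alternatives were another pseudocount (0.1), a filter at 5 TPM or none, quantile normalization, the replicate number as a block, only the groups compared, and each library left out. The voom fit on recovered reads was chosen after seeing the data. Same-numbered libraries did not deviate together (correlations of deviations from -0.05 to 0.05).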

Additional observations from a re-analysis of the deposited data

Results flagged for a closer look

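For 4 genes the knockout difference in P10 GO exceeded that in P10 NGO by the test of the difference itself (limma, adjusted p under 0.05). On the log2(TPM + 1) scale the excess was 3.3 for Rhox1, 2.98 for Rhox2a, 6.12 for Rhox2d and 2.73 for Rhox2g. Over all genes 4.84% passed as higher in this test. Rhox1 passed under all 15 alternative settings, Rhox2d under 14, Rhox2a under 7 and Rhox2g under 4. Both knockout libraries lay above both controls for each of the 4 genes in GO, and in NGO only for Rhox2g. That pattern was found in 30.3% of all genes in GO and 17.4% in NGO. GO controls held at most 2 reads of Rhox2d and Rhox2g, so those 2 sizes depend on the pseudocount.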

How the results depend on the processing

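No difference of a member past the threshold reversed under the alternatives run. In P10 GO, Rhox1, Rhox6, Rhox3g and all Rhox2 copies but Rhox2e kept an adjusted p under 0.05 in every alternative that tested them, and Rhox2e and Rhox3f missed in 5 of 11 each. Rhox8 passed as lower in P10 GO with log2(TPM + 0.1), quantile normalization and voom. Counts of members past the threshold changed as follows, with the count over all genes in brackets. With log2(TPM + 0.1), 6 passed in P10 NGO (626 of 20470) and 0 for P5 against P1 controls (899). That setting gave 7 for GO against NGO controls (5456). With a filter at 5 TPM, 3 passed in spermatogonia (56 of 12737). With no filter, 1 passed in P10 NGO (211 of 32817) and 0 for P5 against P1 controls (1024). The GO minus NGO effect then had 2 (1208). Quantile normalization gave 2 for P5 against P1 controls (1121 of 20470) and 7 for GO against NGO controls (5604). Fits of only the groups compared gave 0 in P10 NGO (0 of 11437) and 2 for the GO minus NGO effect (385 of 15197). The voom fit gave 5 in P10 NGO (754 of 19833) and 8 for GO against NGO controls (4995). The replicate block gave 2 for P5 against P1 controls (818 of 20470) and moved no other count by more than 1.5 times. The replicate numbers are not known to pair libraries. Leaving out 1 library at a time gave 0 to 5 members at P5, 10 to 19 in P10 GO, 0 to 1 in spermatogonia, 0 to 2 for P5 against P1 controls, 0 to 1 for the P5 minus P1 effect and 2 to 4 for the GO minus NGO effect. A lone library left in a group was assumed to vary like the other groups. The cause of these changes was not tested. With 2 libraries a group, differences smaller than the intervals given cannot be detected.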
